A study of Mus musculus with 44 samples.

Results

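The change in gene expression from meiosis to the postmeiotic stage was measured in male germ cells of adult mice whose TH2B carries a tag. The comparison set 6 arrays of round spermatids against 6 arrays of spermatocytes, all from Th2b+/tag mice of experiment 1, which makes 12 of the 44 arrays of the series. The arrays were chosen by their titles, and all 12260 genes with a detected probe were tested. Th2b+/tag mice carry 1 allele that adds His, Flag and Ha affinity tags to the C terminus of TH2B, and both cell types of this comparison share that allele. Other mice are used below for comparison only: kd-labelled mice of experiment 2, described as expressing no TH2B (5 arrays per cell type), wild-type mice of experiment 1 (6 per cell type) and wild-type mice of experiment 2 (5 per cell type). All mice were adult. The study calls the replicates biological. The labels do not say whether a replicate is 1 animal or a pool, nor how the cell fractions were isolated. P-values below measure the spread between replicates. In the fits by limma this spread, and each standard error, is pooled over the 8 groups of the 44 arrays. It is not that of the 12 tagged arrays alone.

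TH2B, a testis-specific H2B, replaces somatic H2B as germ cells enter meiosis and is itself removed when spermatid chromatin is repackaged, first with transition proteins and then with protamines. Spermatocytes pair and recombine their chromosomes and divide to give haploid round spermatids, which build the acrosome, the sperm tail and the protamine-packed nucleus. Transcripts of many of these late proteins appear in round spermatids and are stored before they are translated. The X and Y chromosomes are silenced in pachytene spermatocytes, and some of their genes are expressed again after meiosis.

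The signals separated the cell types, but the spermatocyte arrays differed among themselves. Of 45281 probes, 16156 to 17787 on tagged spermatid arrays and 17387 to 18793 on tagged spermatocyte arrays had a detection p under 0.05 and are called above background. Precision is limited by the number of arrays. All values below are normalized signals on the log2 scale unless another scale is named, and an error after ± is a standard error of a log2 difference or, where stated, an SD. The first principal component of the 12 tagged arrays held 79.9% of the variance, with spermatids between 36.4 and 63.2 and spermatocytes between -84.6 and -12.4. Spermatocyte replicates 1 (-12.4) and 2 (-23.3) lay nearest to the spermatids. Of the genes at least 2-fold higher in spermatids, the highest spermatocyte array was replicate 1 for 1267 of 1640 and replicate 2 for 327. The lowest spermatid array was replicate 3 for 902 of them. Counts are therefore also given without spermatocyte replicates 1 and 2.

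Markers of Leydig cells and of macrophages and blood moved with the cell type as well. Among all genes, 29.6% were higher in spermatids and 32.3% lower at an adjusted p under 0.05. Of 10 measured Leydig cell markers, 7 fell in spermatids and 2 rose, and their summed linear signal was 1716 to 2929 on spermatid arrays against 9013 to 19215 on spermatocyte arrays. Cyp17a1, an enzyme of androgen synthesis, lay at 5.73, 7.13 and 8.20 (lowest, median and highest) in tagged spermatids against 10.63, 11.57 and 12.23 in tagged spermatocytes. Every spermatocyte array was above every spermatid array, and the difference was -4.40 ± 0.40 (adjusted p = 1.67e-12, limma). Insl3, the Leydig cell peptide hormone, differed by -3.72 ± 0.32, and Star, for a cholesterol carrier of steroid synthesis, was above background on 0 of 6 spermatid and 5 of 6 spermatocyte arrays (at least 1.10-fold lower). In bulk samples such as these, fewer cells of a type and less RNA per cell cannot be told apart.

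Macrophage and blood markers ran the other way: 12 of 17 rose in spermatids and 0 fell. Their summed linear signal was 2103 to 3413 on spermatid arrays and 594 to 1254 on spermatocyte arrays, without overlap. The haemoglobin gene Hba-a1 rose by 2.78 ± 0.41 (adjusted p = 1.44e-07, limma), the lysozyme gene Lyz2 by 2.23 ± 0.28 and the complement gene C1qb by 2.37 ± 0.27, whereas the macrophage receptor gene Csf1r differed by 0.13 ± 0.13 (adjusted p = 0.395). Sertoli cell markers summed to 2435 to 4631 in spermatids against 1944 to 6279 in spermatocytes. Of 14 genes 3 were higher (21.4%) and 1, Vim, lower (7.14%), both below the shares of all genes. With median centring 1 was higher and 3 lower. Vim differed by -0.70 ± 0.23, a call not made without spermatocyte replicates 1 and 2 (adjusted p = 0.0947) or with cyclic loess (-0.52, adjusted p = 0.0588). Peritubular, smooth muscle and vessel markers summed to 3340 to 4405 in spermatids against 2516 to 6953 in spermatocytes. Of 24 genes 9 were higher (37.5%) and 7 lower (29.2%), near the shares of all genes. With median centring 6 were higher and 7 lower. Within that list the matrix gene Dcn rose by 3.15 ± 0.28, the largest rise of any gene, and Lum by 1.71 ± 0.18. The contractile gene Acta2 fell by 1.11 on the log2 scale (adjusted p = 0.00968) and Mylk by 1.39, but the Acta2 call was not made without spermatocyte replicates 1 and 2 (-0.66, adjusted p = 0.150). Spermatogonial markers summed to 3589 to 4363 in spermatids against 2115 to 3860 in spermatocytes. Of 24 genes 6 were higher (25%) and 3 lower (12.5%), both below the shares of all genes (5 and 5 genes with median centring). The list held Lhx1 at 1.70 ± 0.27, Id4 at -2.37 ± 0.25 and Kit at -0.14 ± 0.25 (adjusted p = 0.649). The part of these other cells in the results below was not tested.

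Most of the measured transcriptome differed between tagged spermatids and tagged spermatocytes. Of 12260 genes, 3633 (29.6%) were higher and 3955 (32.3%) lower in spermatids at an adjusted p under 0.05 (limma, two-sided, Benjamini-Hochberg over all genes), which is 61.9% in either direction. A fit on the tagged arrays alone gave 3478 higher and 3760 lower. Centring each array on its median in place of quantile normalization gave 2765 higher and 4674 lower, so that the share of calls in the higher direction was 37.2% against 47.9%, and the median of all genes was -0.12 with it and -0.01 without. Cyclic loess gave 4004 higher and 3375 lower (54.3% of calls higher, median of all genes 0.04), so which direction holds more genes depends on the normalization. The 6 spermatid and 6 spermatocyte values did not overlap for 4484 genes (36.6%). At least 4-fold changes were counted for 94 genes higher and 306 lower, and at 8-fold for 1 higher and 59 lower. The 4-fold counts moved with the arrays and the processing: they were 427 higher and 435 lower without spermatocyte replicates 1 and 2, 210 and 354 with array weights, 176 and 235 with cyclic loess, 15 and 477 with median centring, 3 and 99 with no background correction and 3 and 110 with the authors' processed values. Without them 3591 genes were called higher and 4148 lower, of which 3441 and 3795 were among the calls above.

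The transcripts with the largest losses belonged to varied classes. Septin12 (chromosome 16), a septin of the sperm annulus, had normalized signals of 4.89, 5.42 and 5.67 (lowest, median and highest) in tagged spermatids, and of 9.91, 10.35 and 10.86 in tagged spermatocytes. All spermatocyte arrays were far above all spermatid arrays, 1 of which was not above background, and the difference of -5.03 ± 0.23 was the largest of all genes (adjusted p = 1.28e-21, limma). Pou5f2 (chromosome 13), a POU-domain transcription factor of germ cells, lay between 5.57 and 6.65 in spermatids and between 10.04 and 11.45 in spermatocytes, a difference of -4.68 ± 0.25. The unnamed gene Gm5878 differed by -4.72 ± 0.18, Kbtbd6, an adaptor of a ubiquitin ligase, by -4.36 ± 0.22, the sulfotransferase gene Chst1 by -4.28 ± 0.17 and the monoacylglycerol lipase gene Mgll by -4.26 ± 0.23. The other members of the 10 largest losses were Cyp17a1 and the kallikrein genes Klk1b24 (-4.52 ± 0.34), Klk1b27 (-4.42 ± 0.35) and Klk1b21 (-4.35 ± 0.34). In mouse testis these kallikreins are known from Leydig cells, whose markers fell as given above.

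The largest gains were smaller. Dcn led them, and the globin genes Hba-a1, Hbb-bt (2.67 ± 0.39) and Hbb-bs (2.55 ± 0.36) were among the 10 largest. Among the germ-cell transcripts, Tppp2 (chromosome 14), of a tubulin-binding family needed for sperm motility, lay at 8.93, 10.14 and 10.51 in tagged spermatids and at 6.69, 7.30 and 8.21 in tagged spermatocytes (lowest, median and highest). The groups did not overlap, spermatid replicate 3 was the low array, and the difference was 2.57 ± 0.33 (adjusted p = 1.07e-08, limma). The membrane progestin receptor gene Paqr5 rose by 2.55 ± 0.33, Tex46 by 2.44 ± 0.28, the cytochrome P450 gene Cyp2a12 by 2.43 ± 0.32, 1700009J07Rik by 2.42 ± 0.28 and Lexm by 2.38 ± 0.30.

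**Figure D1:**
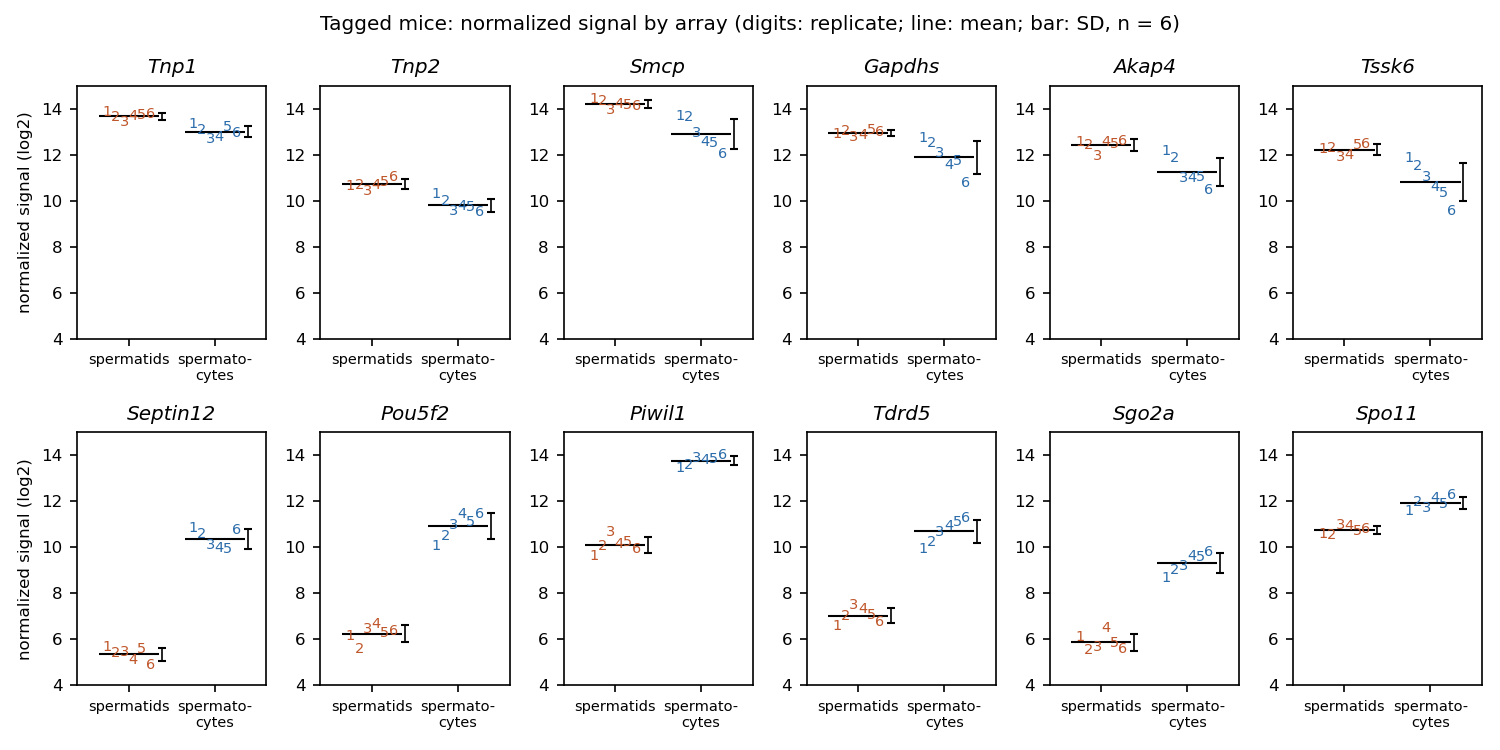
Normalized signal (log2, vertical axis) of 12 genes on each array of tagged mice; digits are replicate numbers, lines are group means and bars are SDs (n = 6). In the upper row spermatocyte replicate 1 is the highest spermatocyte array for every gene, followed by replicate 2 except for Tnp1 (for Gapdhs 12.7 and 12.5, with 10.8 in replicate 6), and the 6 genes of the lower row show no overlap between cell types.

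Genes for repackaging the nucleus were higher in spermatids, though strongly expressed in both fractions. All 6 measured members of the list of transition proteins, protamines and spermatid linker histones rose, against 29.6% of all genes. The count was 5 with cyclic loess and in the tagged arrays alone. Their median difference was 1.00 against -0.01 over all genes. Tnp1, which encodes transition protein 1, had signals of 13.42, 13.72 and 13.86 (lowest, median and highest) in tagged spermatids and of 12.69, 13.03 and 13.33 in tagged spermatocytes. The groups were close but did not overlap, and the difference was 0.67 ± 0.15 (adjusted p = 2.00e-04, limma). Tnp2, for transition protein 2, lay at 10.41, 10.69 and 11.06 in tagged spermatids against 9.53, 9.75 and 10.29 in tagged spermatocytes, again without overlap (0.91 ± 0.18). The protamine gene Prm1 was near the top of the scale in both cell types, at 14.41 to 14.64 in spermatids against 13.95 to 14.46 in spermatocytes. These groups overlapped, and the difference of 0.25 ± 0.09 (adjusted p = 0.0223) was not past the threshold with cyclic loess (0.15, adjusted p = 0.298), without spermatocyte replicate 6 (0.18, adjusted p = 0.0992), without spermatid replicate 4 or 6, or in the tagged arrays alone (adjusted p = 0.0643). The protamine-like gene Prm3 rose by 1.10 ± 0.25 and the linker histone genes Hils1 and H1f7 by 1.17 ± 0.24 and 1.73 ± 0.29. Prm2 had no probe under that name and was not measured.

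Many spermatid genes rose together, and the 250 bases before the RefSeq start sites of all genes (build GRCm38.p6) were searched on both strands for letters that regulators of germ-cell genes are known to bind. These were TGACGTCA, the cAMP response element of CREM, and AACNGTT, a site of MYB-family factors. TGATGTCA (TGACATCA on the other strand), which differs from the cAMP response element in 1 base, was added after the Tnp1 promoter and the values had been seen, so its counts are a description only. A match of one of these motifs is never a match of another. The 4 promoters shown carry 1 match each, in capitals, and run 5′ to 3′ up to the base before the start site.

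Tnp1 (chr1:73015900-73016149, minus strand, TGATGTCA): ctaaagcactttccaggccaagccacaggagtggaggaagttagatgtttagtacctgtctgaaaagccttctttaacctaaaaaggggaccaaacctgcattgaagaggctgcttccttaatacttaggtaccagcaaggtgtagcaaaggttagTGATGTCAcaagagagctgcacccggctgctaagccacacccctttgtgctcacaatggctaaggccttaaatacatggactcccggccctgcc

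Akap4 (chrX:7067265-7067514, plus strand, TGATGTCA): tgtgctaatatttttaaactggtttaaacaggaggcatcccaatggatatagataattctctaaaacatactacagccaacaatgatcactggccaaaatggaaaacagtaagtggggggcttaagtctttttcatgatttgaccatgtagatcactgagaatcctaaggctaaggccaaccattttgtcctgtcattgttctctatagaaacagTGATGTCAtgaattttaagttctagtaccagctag

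Izumo1 (chr7:45621561-45621810, plus strand, TGACGTCA): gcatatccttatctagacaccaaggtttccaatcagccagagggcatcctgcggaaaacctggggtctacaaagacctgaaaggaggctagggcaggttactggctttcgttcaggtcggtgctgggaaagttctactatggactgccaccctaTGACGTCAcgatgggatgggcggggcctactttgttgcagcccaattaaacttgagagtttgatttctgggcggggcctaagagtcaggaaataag

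Chst1 (chr2:92600867-92601116, plus strand, AACNGTT): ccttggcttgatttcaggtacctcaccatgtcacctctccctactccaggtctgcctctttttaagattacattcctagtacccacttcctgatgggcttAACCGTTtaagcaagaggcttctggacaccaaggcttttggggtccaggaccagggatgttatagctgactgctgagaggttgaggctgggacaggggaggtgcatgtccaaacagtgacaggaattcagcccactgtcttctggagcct

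Tnp1 and Akap4 rose in spermatids, as did Izumo1, and Chst1 fell. A RefSeq promoter was at hand for 9935 of the 12260 genes. TGACGTCA stood in 279 of these promoters (2.81%), in 30 of 1320 promoters of genes at least 2-fold higher (2.27%), in 0 of 78 at least 4-fold higher and in 6 of 247 at least 4-fold lower (2.43%). AACNGTT stood in 384 of all promoters (3.87%), in 61 of 1320 at least 2-fold higher (4.62%), in 6 of 78 at least 4-fold higher (7.69%) and in 8 of 247 at least 4-fold lower (3.24%). TGATGTCA or its complement stood in 293 of all promoters (2.95%), but in 122 of 1320 promoters of genes at least 2-fold higher (9.24%), in 10 of 78 at least 4-fold higher (12.8%) and in 20 of 1261 at least 2-fold lower (1.59%). On autosomes alone the shares were 8.90% of genes at least 2-fold higher, 1.59% of genes at least 2-fold lower and 2.86% of all. The nearest match lay within 100 bases of the start site in 103 of the 122 higher genes, as in Tnp1 (94 bases) and Akap4 (35 bases), and in 7 of the 20 lower genes. A match of letters is no measured binding site, and the share in genes at least 2-fold higher was between 8.60% and 13.9% over the alternatives in processing.

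Genes of the acrosome rose broadly. Of 40 measured genes for the acrosome and sperm-egg fusion, 26 were higher (65%) and 4 lower (10%), against 29.6% and 32.3% of all genes. The median difference was 1.02. Izumo1, the sperm protein that binds the egg, had signals of 11.71, 11.96 and 12.17 in tagged spermatids against 9.32, 10.44 and 11.82 in tagged spermatocytes (lowest, median and highest). Only spermatocyte replicate 1 reached into the spermatid range, and the difference was 1.35 ± 0.31 (adjusted p = 2.19e-04, limma). The acrosomal genes Acrv1 (0.94 ± 0.26) and Spaca1 (1.16 ± 0.23) also rose, as did Fndc3a (2.31 ± 0.25), which is needed for spermatid adhesion to Sertoli cells. The proacrosin gene Acr did not pass (0.15 ± 0.10, adjusted p = 0.197), with 12.31 to 12.64 in spermatids and 12.01 to 12.55 in spermatocytes, although it did with cyclic loess (0.39, adjusted p = 0.00155), median centring (0.34, adjusted p = 0.0294) and the mean of its probes (0.27, adjusted p = 0.0381). Pick1, a gene for vesicle traffic to the acrosome, fell (-0.85 ± 0.12). The other 3 genes that fell, named after their values were seen, were Tex101, Agfg1 and Spink2.

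Genes for the sperm tail were counted in 2 lists. Of 31 measured genes of the fibrous sheath, the outer dense fibres and other tail parts, 24 rose and 4 fell, Septin12 among them, with a median of 0.81. Of 50 genes of the axoneme and its dyneins 13 rose (26%) and 23 fell (46%), where 29.6% and 32.3% of all genes did, with a median of -0.13. With cyclic loess 17 rose and 20 fell, and the median was 0.06. Akap4, the main fibrous sheath protein, lay at 11.93, 12.51 and 12.60 in tagged spermatids against 10.47, 11.02 and 12.15 in tagged spermatocytes (lowest, median and highest). The low spermatid array was replicate 3 and the high spermatocyte array replicate 1, and these overlapped (1.17 ± 0.25, adjusted p = 9.52e-05, limma). Smcp, of the mitochondrial capsule, lay at 13.93 to 14.43 in spermatids and 12.05 to 13.70 in spermatocytes, without overlap (1.30 ± 0.24). The sheath gene Ropn1 rose by 1.80 ± 0.20, and the dense fibre gene Odf1 by 0.72 ± 0.19.

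On the axonemal side, the dynein heavy chain genes Dnah2 and Dnah17 fell by 2.01 and 1.04 on the log2 scale and the transport gene Ift20 by 1.33. Dnah2 lay at 7.68, 8.08 and 8.52 in tagged spermatids and at 9.73, 10.08 and 10.48 in tagged spermatocytes, so that no array of one cell type reached the other (SE 0.14, adjusted p = 1.28e-15, limma). Spag16, of the central pair, differed by -0.06 ± 0.12 (adjusted p = 0.723).

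Among the testis-specific serine kinases and their partners, 6 of 7 measured genes rose (85.7%, against 29.6% of all genes) and 0 fell. The median was 1.20. Tssk6, a kinase needed for histone removal, had signals of 11.91, 12.29 and 12.48 in tagged spermatids and 9.58, 10.81 and 11.87 in tagged spermatocytes (lowest, median and highest). Spermatocyte replicate 1 came just under the lowest spermatid array, and the difference was 1.41 ± 0.30 (adjusted p = 7.52e-05, limma). Tssk4 rose by 1.48 ± 0.27, Tssk5 by 1.49 ± 0.29 and Tssk2 by 1.20 ± 0.26. A probe for Tssk1 was on the array but did not pass the detection filter.

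Germ-cell energy enzymes were mixed: 10 of 24 rose (41.7%) and 4 fell (16.7%), against 29.6% and 32.3% of all genes. The median was 0.20. Gapdhs, the sperm form of a glycolytic dehydrogenase, lay at 12.78, 12.95 and 13.09 in tagged spermatids and at 10.77, 11.90 and 12.71 in tagged spermatocytes (1.05 ± 0.24, adjusted p = 1.61e-04, limma). The groups did not overlap, with replicates 1 and 2 the highest spermatocyte arrays. The glycolytic kinase gene Pgk2 rose by 0.85 ± 0.14 and the adenylate kinase gene Ak1 by 1.11 ± 0.12, while the glucose transporter gene Slc2a3 fell by 1.67. The lactate dehydrogenase gene Ldhc was at 14.64 to 14.78 in spermatids and 14.59 to 14.78 in spermatocytes. Its probe held the highest normalized value of the array on 3 of 6 spermatid and 4 of 6 spermatocyte arrays, so no change is read from it. Gk2, a testis glycerol kinase gene, did not pass (0.22 ± 0.13, adjusted p = 0.145).

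Of 36 measured transcription regulators of meiosis and spermiogenesis, 18 rose (50%) and 11 fell (30.6%), against 29.6% and 32.3% of all genes. The median was 0.36. Sox30, a regulator of the postmeiotic programme, lay at 7.66 to 8.18 in tagged spermatids and at 4.90 to 7.46 in tagged spermatocytes, without overlap (1.79 ± 0.24, adjusted p = 1.83e-08, limma). Crem, the activator of many spermatid genes, rose by 0.65 ± 0.11 with its brightest probe, but differed by -0.19 (adjusted p = 0.123) with the mean of its probes, so the probes of Crem disagree. The ciliary regulator Rfx2 fell by 0.47 with the brightest probe and differed by 0.12 (adjusted p = 0.234) with the mean of probes. Rfx4 fell by 1.71, and that call too was absent with the mean of probes (-0.06, adjusted p = 0.526). Mybl1, the MYB factor of meiosis, had a probe that did not pass the detection filter.

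**Figure D2:**
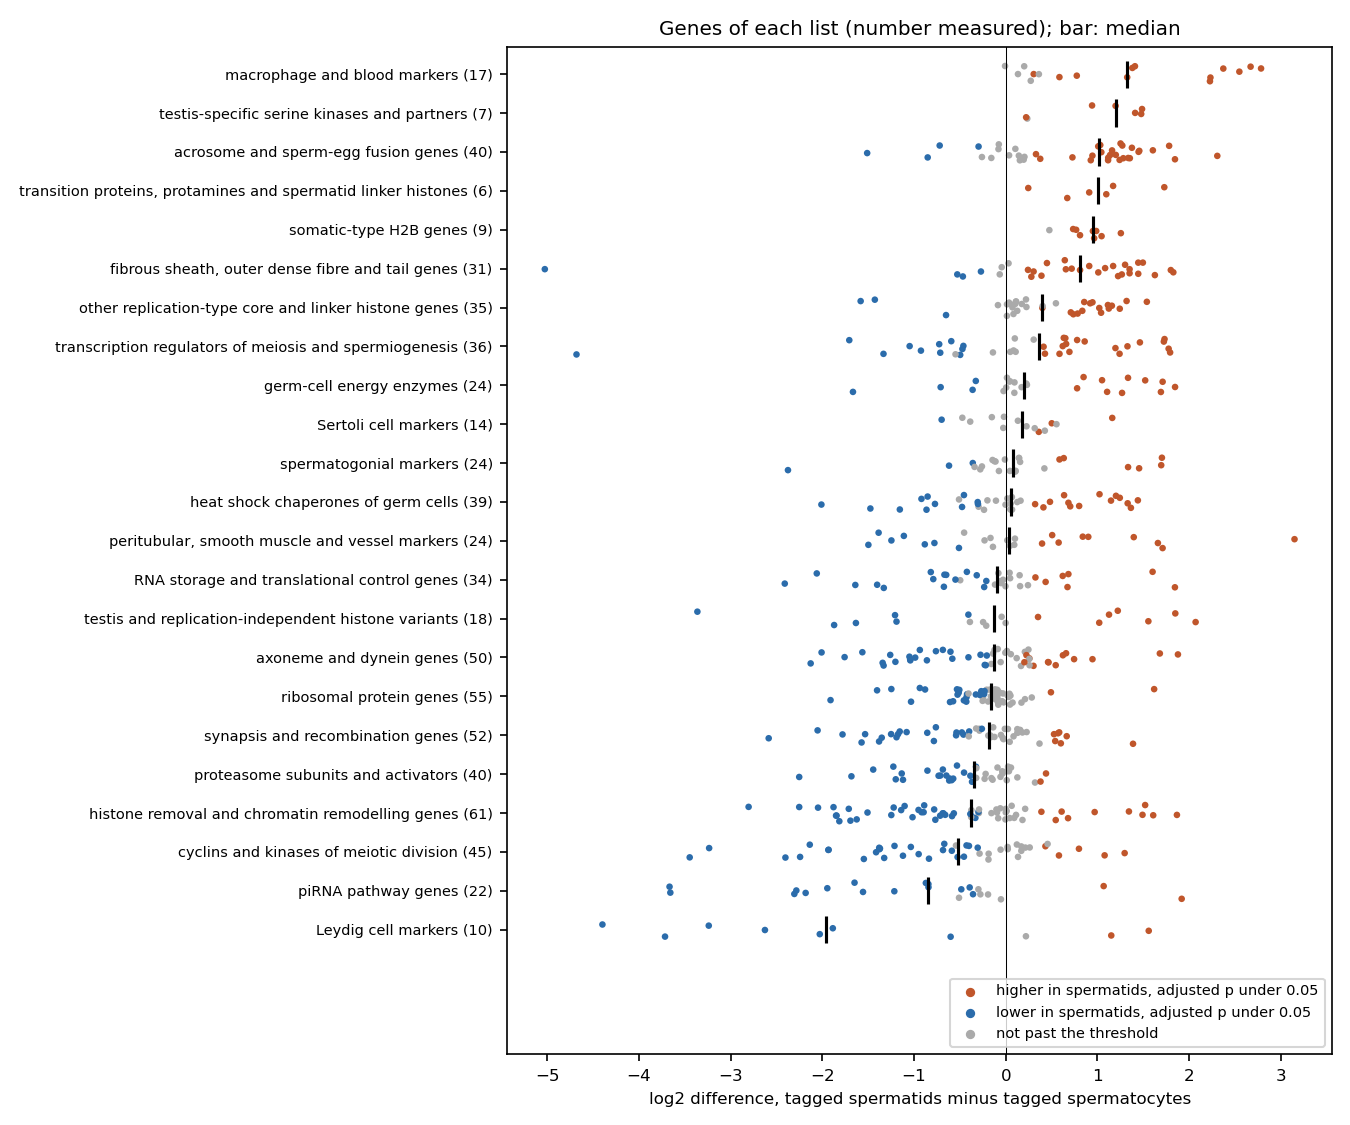
Log2 difference, tagged spermatids minus tagged spermatocytes (horizontal axis), for each measured gene of 23 lists, ordered by median (black bar) with the number measured in parentheses. Acrosome, kinase and nuclear packaging genes lie mostly to the right (medians 1.02, 1.20 and 1.00), piRNA and meiotic division genes to the left (medians -0.84 and -0.53), and Leydig cell markers furthest left (median -1.96).

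Genes of the piRNA pathway, which protects the germline genome with small RNAs bound to PIWI proteins, mostly fell. Of 22 measured genes, 15 were lower (68.2%) and 2 higher (9.09%), against 32.3% and 29.6% of all genes. The median was -0.84. Piwil1, the PIWI protein of pachytene spermatocytes, had signals of 9.63, 10.10 and 10.66 in tagged spermatids and 13.47, 13.83 and 14.02 in tagged spermatocytes (lowest, median and highest). The ranges were far apart, and the difference was -3.66 ± 0.13 (adjusted p = 7.34e-25, limma). Tdrd5, a Tudor-domain gene of the same granules, lay at 6.56 to 7.48 in spermatids against 9.94 to 11.28 in spermatocytes (-3.67 ± 0.19). Piwil2 fell by 2.28, Gpat2 by 2.18, Tdrd1 by 1.56 and Tdrd6 by 0.87, and none of these 4 overlapped between the cell types. In the whole list 11 of 22 genes were lower in spermatids without overlap, against 19.1% of all genes.

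Meiotic genes were counted by stage. Of 52 measured synapsis and recombination genes 21 fell (40.4%, against 32.3% of all genes) and 7 rose (median -0.18), and the counts were 19 and 11 with cyclic loess and 24 and 3 with median centring. Of 45 cyclins, kinases and other genes of meiotic division 26 fell (57.8%) and 5 rose (11.1%), against 32.3% and 29.6% of all genes. The median was -0.53. Spo11, which makes the breaks that start recombination, had signals of 10.55, 10.75 and 10.97 in tagged spermatids against 11.57, 11.95 and 12.26 in tagged spermatocytes (lowest, median and highest). No array overlapped, and the difference was -1.17 ± 0.11 (adjusted p = 9.42e-12, limma). The axial element gene Sycp2 fell by 2.05 and the crossover gene Mlh3 by 2.58. Sycp1, for the transverse filament of the synaptonemal complex, was dim, above background on 3 of 6 spermatid and 6 of 6 spermatocyte arrays, and its difference of -0.54 ± 0.21 (adjusted p = 0.0246) was not past the threshold with cyclic loess (adjusted p = 0.179) or when 1 of 5 arrays was left out (spermatocyte replicate 3 or 6, spermatid replicate 1, 2 or 5, adjusted p up to 0.0774). Sycp3, Hormad1 and Dmc1 had probes that did not pass the detection filter.

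In the division list, Sgo2a, the shugoshin that guards cohesion at centromeres, had signals of 5.51, 5.74 and 6.47 in tagged spermatids and 8.65, 9.38 and 9.78 in tagged spermatocytes. The cell types were well apart (-3.45 ± 0.18, adjusted p = 1.92e-19, limma). Cdk2, the kinase found at meiotic telomeres and crossovers, fell by 3.23 and Cdk1, the kinase of division itself, by 1.38. Cdc25c, a phosphatase that activates Cdk1, went the other way: it rose by 1.30 ± 0.17, with 8.43 to 8.82 in spermatids and 6.77 to 7.98 in spermatocytes. Ccna1, the cyclin of male meiosis, differed by 0.02 ± 0.16 (adjusted p = 0.916) and Aurkc by -0.19 ± 0.15 (adjusted p = 0.292), although Aurkc passed with median centring (-0.48, adjusted p = 0.0385). Hspa2, a chaperone of spermatocytes, was near the top of the scale in both cell types and fell by 0.31 ± 0.09, a call not made with median centring (-0.20, adjusted p = 0.0521). Ccnb1 had no probe under that name.

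Among 34 measured genes for RNA storage and translational control 7 rose (20.6%) and 15 fell (44.1%), against 29.6% and 32.3% of all genes. The median was -0.10. Dazap1, an RNA-binding protein of germ cells, lay at 9.55, 10.39 and 10.82 in tagged spermatids and at 11.94, 12.82 and 13.10 in tagged spermatocytes (-2.41 ± 0.18, adjusted p = 7.97e-15, limma), without overlap. Rbm44 fell by 2.06, and the cytoplasmic poly(A) polymerase gene Papolb rose by 0.32 ± 0.08. The changes in the mRNA storage gene Ybx2 (-0.24 ± 0.08), the helicase gene Ddx25 (-0.21 ± 0.08) and the splicing gene Ptbp2 (0.43 ± 0.15) were small, and each missed the threshold under some alternative, Ptbp2 at 0.29 (adjusted p = 0.132) without spermatocyte replicates 1 and 2.

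TH2B itself could not be followed. The probe for its gene H2bc1 (ILMN_2589152, chromosome 13) was above background on 1 of 6 tagged spermatid and 0 of 6 tagged spermatocyte arrays and says nothing of the RNA. H2ac1, the neighbouring gene of the testis H2A, was dim, with 2 of 6 spermatid and 5 of 6 spermatocyte arrays above background (-0.39 ± 0.18, adjusted p = 0.0516), a difference that passed without spermatocyte replicates 1 and 2 (-0.51, adjusted p = 0.0219).

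Somatic-type H2B genes rose in tagged spermatids. Of 9 measured genes 8 were higher (88.9%, against 29.6% of all genes) and 0 lower, with a median of 0.95. In wild-type mice of experiment 1, 7 were higher (median 1.14). H2bc14 lay at 10.77, 10.91 and 11.17 in tagged spermatids against 9.04, 9.94 and 10.66 in tagged spermatocytes (lowest, median and highest). The groups did not overlap, and the difference was 1.04 ± 0.19 (adjusted p = 7.89e-06, limma). H2bc21 rose by 1.25 ± 0.24 with its brightest probe but fell by 0.35 (adjusted p = 0.00799) with the mean of its probes. Among 35 other replication-type histone genes, 16 rose (45.7%) and 3 fell (8.57%), against 29.6% and 32.3% of all genes. Their median was 0.40, and they include the H4 genes H4c3 (1.54 ± 0.21) and H4c2 (-1.58 ± 0.18). Probes of clustered histone genes may share signal between near-identical copies.

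Of 18 measured histone variants 7 rose (38.9%) and 6 fell (33.3%), near the shares over all genes (29.6% and 32.3%), with a median of -0.13. H3f3b, which makes a replacement form of histone H3, lay at 7.46, 7.72 and 8.32 in tagged spermatids and at 10.16, 11.39 and 11.92 in tagged spermatocytes, a wide separation (-3.36 ± 0.23, adjusted p = 4.94e-16, limma). Macroh2a1, the variant found on the silenced sex chromosomes, fell by 1.87. The testis linker histone gene H1f6 rose by 1.02 ± 0.12, near background.

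Of 61 measured genes for histone removal and chromatin remodelling, 32 fell (52.5%, against 32.3% of all genes). Another 10 rose (16.4%, against 29.6%), and the median was -0.38. Brd3, a reader of acetylated histones, had signals of 6.25 to 7.16 in tagged spermatids and 9.04 to 9.91 in tagged spermatocytes (-2.80 ± 0.17, adjusted p = 1.56e-17, limma). The methyltransferase gene Setd2 fell by 2.05 and Rnf8, a ubiquitin ligase that acts on histones, by 1.63. Chd5, a remodeller needed for histone eviction, rose by 1.52 ± 0.27, with signals of 10.60 to 11.03 in spermatids and 8.27 to 10.44 in spermatocytes. Brdt, the testis reader of acetylated histones, differed by -0.08 ± 0.11 (adjusted p = 0.531). The proteasome activator gene Psme4 did not pass (-0.16 ± 0.08, adjusted p = 0.0770), and the mean of its probes gave 0.29 in the other direction (adjusted p = 0.00454).

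Of 40 measured proteasome subunits and activators 21 were lower (52.5%) and 2 higher (5%), against 32.3% and 29.6% of all genes. The median was -0.35. Psma8, the testis-specific subunit, lay at 8.29 to 9.14 in tagged spermatids and at 10.01 to 11.65 in tagged spermatocytes, without overlap (-2.25 ± 0.24, adjusted p = 1.19e-10, limma). The assembly factor genes Pomp and Psmg3 fell by 1.45 and 1.68. Of 39 heat shock chaperones 14 rose (35.9%) and 11 fell (28.2%), again near the shares over all genes, with a median of 0.05 that turned negative (-0.03) with median centring. The germ-cell chaperone genes Hspa1l and Calr3 rose by 1.36 ± 0.29 and 1.44 ± 0.27, while Hspa4l and Hsp90b1 fell by 2.01 and 1.16. Of 55 ribosomal protein genes 21 fell (38.2%, against 32.3% of all genes) and 2 rose (median -0.16), and with cyclic loess 15 fell and 7 rose (median -0.04). The list held Rpl10a at -1.91 ± 0.15 and Rps3 at -1.25 ± 0.13.

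More of the sex-linked genes than of the autosomal genes rose, by the shares below. Of 389 measured X-linked genes 206 (53.0%) were higher in tagged spermatids and 19 (4.88%) lower, with a median of 0.45, against 3400 (28.8%) higher and 3919 (33.2%) lower of 11809 autosomal genes, with a median of -0.03. With median centring 163 X-linked genes rose and 25 fell (median 0.22). Over single autosomes the share that rose was between 24.8% and 34.7%. All 15 measured Y-linked genes rose, with a median of 1.10, and 13 rose with median centring. Of 7 mitochondrial genes 5 fell and 0 rose.

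Among X-linked genes, Tmsb15a, of the actin-binding thymosin family, had signals of 8.53, 9.50 and 9.71 in tagged spermatids and 6.47, 7.03 and 8.08 in tagged spermatocytes (lowest, median and highest). Spermatid replicate 3 was low, no arrays overlapped, and the difference was 2.24 ± 0.29 (adjusted p = 7.59e-09, limma). Ssxb5 (2.12 ± 0.21), 1700031F05Rik (2.10 ± 0.24) and Gm614 (2.06 ± 0.31) were the other large gains. The largest X-linked losses were in Efnb1, an ephrin gene (-1.42 ± 0.20), Vegfd, a vascular growth factor gene (at least 1.58-fold lower, on 0 of 6 spermatid arrays above background), Tceal9 (-1.10 ± 0.25) and Hsd17b10 (at least 1.54-fold lower).

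Among Y-linked genes, Ssty1, a multicopy spermatid gene, lay at 11.46, 11.65 and 12.41 in tagged spermatids and at 9.18, 10.29 and 11.46 in tagged spermatocytes, with the highest spermatocyte array just under the lowest spermatid array (1.45 ± 0.30, adjusted p = 4.48e-05, limma). Rbm31y rose by 1.72 ± 0.15, Gm20738 by 1.31 ± 0.25 and the short H2A variant gene H2al2c by 1.68 ± 0.20. Copies of these families may share probe signal.

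**Figure D3:**
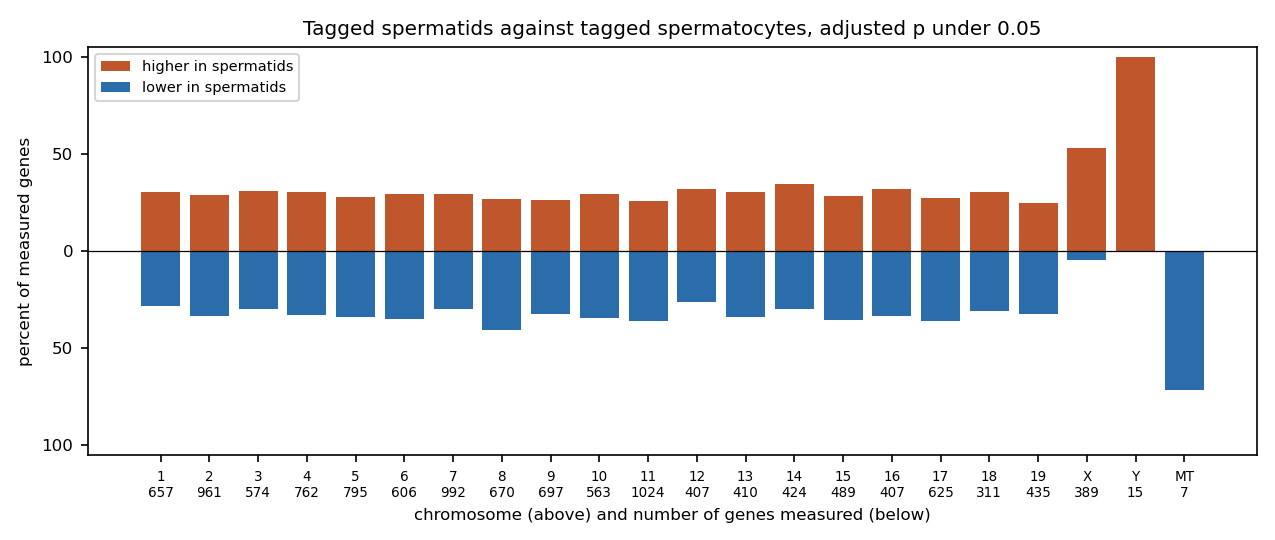
Percent of measured genes higher (upward) or lower (downward) in tagged spermatids than in tagged spermatocytes at an adjusted p under 0.05, by chromosome, with the number of genes measured under each name. The X bar stands at 53.0% up and 4.88% down and the Y bar at 100% of 15 genes up, while the autosomes run from 24.8% to 34.7% up.

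Some genes crossed the detection limit. The probes of 127 genes were above background on all 6 tagged spermatocyte arrays and on 0 tagged spermatid arrays, and those of 10 genes the reverse. In the first set the bounds ran from at least 1.07-fold to at least 8.62-fold lower in spermatids, led by 4930488B01Rik (8.62), the aminotransferase gene Gpt2 (4.71), the interferon-activated gene Ifi213 (4.39), Kbtbd7 (4.21) and Zbtb8a (3.31). Wild-type mice of experiment 1 had the same split for 51 of these 127. In the second set the bounds were at most 2.06-fold, with Serpina1d at 2.06, H2-Eb1 at 1.61, Olfr697 at 1.56, Try4 at 1.55 and then Tnfrsf9, and wild-type mice had the same split for 0 of the 10. H2-Eb1 is a class II antigen gene of macrophages and B cells, whose related markers rose as given above. Without spermatocyte replicates 1 and 2 the second set held 58 genes, without either of them alone 19, and without spermatid replicate 3 or 5 18.

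The programme was set beside that of wild-type mice of experiment 1, which share no array with it. There 3413 genes (27.8%) were higher and 4129 (33.7%) lower in spermatids. In experiment 2 the counts were 3283 (26.8%) and 4308 (35.1%) in kd-labelled mice, and 3300 (26.9%) and 4300 (35.1%) in wild-type mice. Of the genes higher in tagged spermatids, 2958 were higher in wild type too, which is 81.4% of the tagged and 86.7% of the wild-type calls. Of those lower, 3580 were shared, which is 90.5% of the tagged and 86.7% of the wild-type calls. Opposite calls were made for 19 and 7 genes. Over the 12260 genes the differences correlated at r = 0.951 (Spearman 0.936) between tagged and wild type, as a description across genes, which are not independent. Correlations with wild-type and kd-labelled mice of experiment 2 were 0.906 and 0.896. Among shared gains the median difference was 1.05 in tagged and 1.14 in wild-type mice, with 70.1% of genes larger in wild type, and among shared losses -0.90 and -0.91.

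The median gains of the packaging, acrosome, sheath and kinase lists were set beside those of the other mice. None of their 6, 40, 31 and 7 measured genes passed the test of the difference from wild type of experiment 1 (0 calls). Of all genes 2.50% passed it, and in lists this small 0 calls is near that share. The medians were 1.00, 1.02, 0.81 and 1.20 in tagged mice, 1.93, 1.49, 1.55 and 1.77 in kd-labelled mice, 1.28, 1.31, 1.04 and 1.46 in wild type of experiment 1, and 2.23, 1.89, 1.75 and 1.95 in wild type of experiment 2. Without tagged spermatocyte replicates 1 and 2 the tagged medians were 1.25, 1.40, 0.99 and 1.60. The acrosome and kinase medians then lay above those of wild type of experiment 1, from which no array was left out. Wild-type spermatocyte replicate 1, the highest spermatocyte array by the mean of 41 genes given below, was kept. The sets of arrays were therefore unlike, and no order of the genotypes is read from these medians. Prm3 differed by 1.10 in tagged, 2.68 in kd-labelled, 1.51 in wild-type experiment 1 and 2.87 in wild-type experiment 2 mice. Akap4 differed by 1.17, 2.38, 1.62 and 2.58, in the same order. Among the losses, Septin12 stood at -5.03, -5.08, -4.94 and -4.91 and Piwil1 at -3.66, -3.14, -3.64 and -2.81.

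Means per array were taken over genes chosen only in wild-type mice of experiment 2. These were 41 genes at least 8-fold higher and 62 at least 8-fold lower in spermatids there. Cell mix, stage and genotype cannot be told apart in such means. The 41 include Dcn, Klk1b8 and Klk1b9, and the 62 include the Leydig markers Cyp17a1 and Insl3 with Klk1b21, Klk1b24 and Klk1b27. The mean of the 41 genes was 9.39 ± 0.38 in tagged spermatids and 10.46 ± 0.26 in wild-type spermatids (SD, n = 6 each), lower by 1.07 (exact permutation test, two-sided, p = 0.00217, the smallest it can give with 6 against 6 arrays; 0.00866 after adjustment over 4 tests). Tagged spermatid replicate 3 was lowest (8.65), and every tagged array was below every wild-type array. For spermatocytes the same mean was 7.27 ± 0.59 in tagged mice, against 8.06 ± 0.92 in wild-type mice (SD, n = 6 each), and the difference did not pass (exact permutation p = 0.115, adjusted 0.153). It passed without tagged replicates 1 and 2 (-1.14, exact p = 0.0429) and without wild-type replicate 5 (-0.99, exact p = 0.0476). Without wild-type replicate 1, the highest spermatocyte array (9.63), it shrank to -0.47 and did not pass. Without that array and tagged replicates 1 and 2 together it was -0.82 (exact p = 0.0397). Tagged replicates 1 and 2 had the highest values of this mean among tagged spermatocytes (8.12 and 7.83). Wild-type replicate 5 had the lowest among wild-type spermatocytes (7.04). Leaving such arrays out widens the difference by itself, so no conclusion is drawn from these p-values. The 62 genes averaged 6.65 ± 0.17 in tagged and 6.91 ± 0.11 in wild-type spermatids (SD, n = 6 each; exact permutation p = 0.0130, adjusted 0.0260), with p = 0.0844 under median centring. Leydig cell markers summed to 1716 to 2929 in tagged and 2734 to 4731 in wild-type spermatids. Without the 5 Leydig and kallikrein genes named above, the mean of the rest of the 62 differed by -0.25 in spermatids (exact permutation p = 0.0195). In spermatocytes the mean of the 62 genes differed by -0.15 (exact permutation p = 0.446). The median gain of the 41 genes was 2.10 in tagged, 3.03 in kd-labelled, 2.41 in wild-type experiment 1 and 3.19 in wild-type experiment 2 mice. The value of 3.19 follows from choosing the genes by an 8-fold gain in those mice, so the other gains are not measured against it. Of the 41 genes 35 were lower in tagged than in wild-type spermatids and 31 in tagged than in wild-type spermatocytes. The share over all genes was not counted, and genes on the same arrays are not replicates, so nothing is read from these counts.

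**Figure D4:**
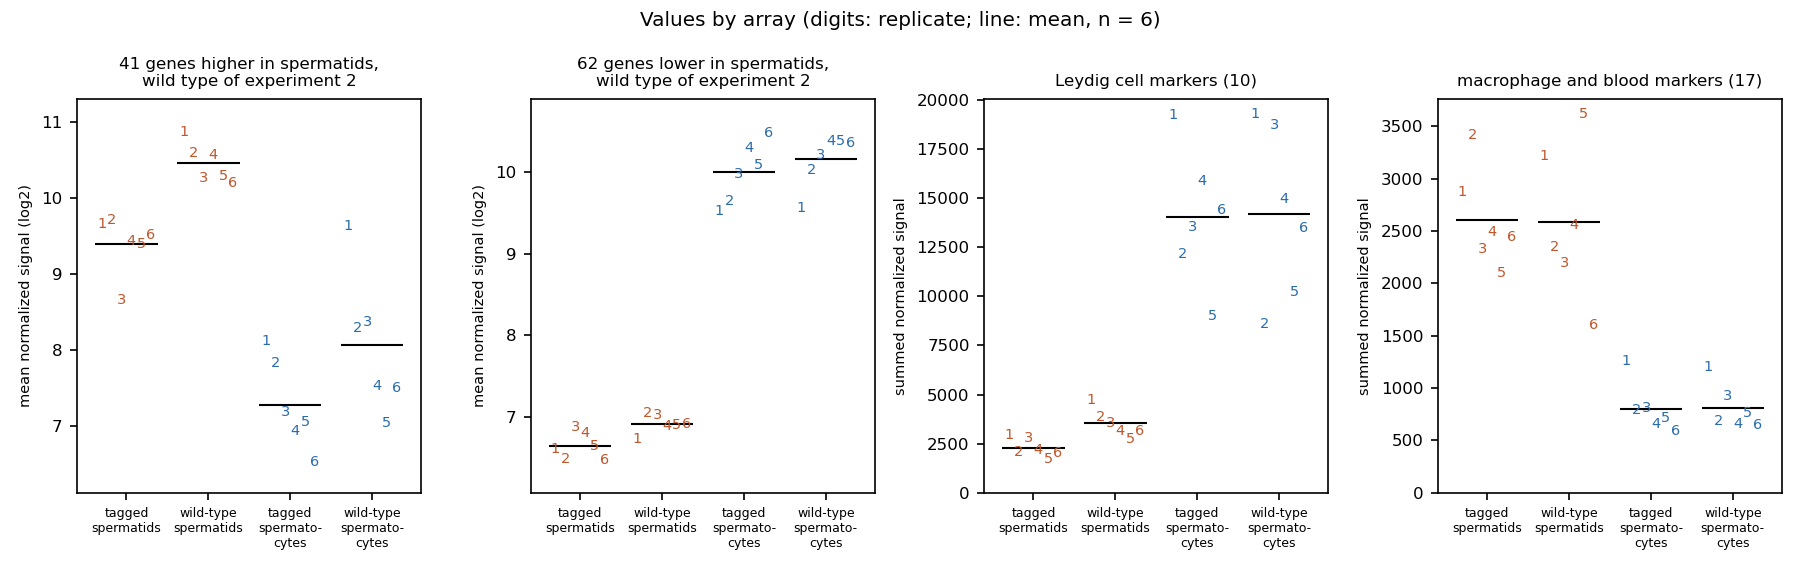
Values on each array of experiment 1 (digits are replicates, lines are means, n = 6): the mean normalized signal (log2) of the 41 genes higher and of the 62 genes lower in wild-type spermatids of experiment 2, and the summed linear signal of Leydig and of macrophage and blood markers. Tagged spermatids (8.65 to 9.71) lie below wild-type spermatids (10.20 to 10.87) in the first panel, and Leydig sums are 1716 to 2929 in tagged spermatids against 9013 to 19215 in tagged spermatocytes.

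A direct test of the difference between the stage changes of tagged and wild-type mice passed for 306 genes (2.50%), of which 238 (1.94%) were more positive in tagged mice and 68 (0.555%) more negative. Of the 656 genes higher in tagged spermatids and not called in wild type, 145 passed this test, and of the 368 lower ones 2. With same-numbered arrays of tagged and wild-type mice paired, 248 were more positive and 115 more negative. The count of both directions was 171 with experiment 1 alone, 171 with cyclic loess, 143 with median centring and 515 with array weights. In 77 of the 238 genes 0 wild-type spermatid arrays were above background, and in 58 of them 0 wild-type arrays of either cell type.

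Arhgef26 was such a case, at 7.88 ± 0.42 in tagged and 4.43 ± 0.04 in wild-type spermatids (SD, n = 6 each). Its spermatocyte signals were 5.85 ± 0.72 in tagged mice and 4.40 ± 0.09 in wild-type mice. It was above background on all 12 tagged arrays and on 0 wild-type arrays of experiment 1. Its signal was at least 7.54-fold higher in tagged than in wild-type spermatids, and it rose by 2.03 ± 0.18 with stage in tagged mice. The stage change in wild-type mice was not measurable, so no size is read for the difference between genotypes. The calcium pump regulator gene Sln, also above background on 0 wild-type arrays, was at least 6.02-fold higher in tagged than in wild-type spermatids and rose by 1.97 ± 0.15 with stage in tagged mice. The death receptor gene Tnfrsf21 rose by 2.26 in tagged mice, and the chitinase-like genes Chil4 and Chil3, whose probes may share signal, by 2.20 and 2.23. Of the 6 wild-type spermatid and 6 wild-type spermatocyte arrays, Tnfrsf21 was above background on 2 and 0, Chil4 on 2 and 0 and Chil3 on 3 and 1. The integrin gene Itgb4 rose in tagged mice (0.94) and fell in wild-type mice (-0.86), a difference of 1.80 ± 0.24.

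The 6 genes with the most negative differences rose in wild-type spermatids and were at or near background in tagged mice. Mlkl, the effector of necroptosis, was at 4.94 ± 0.25 in tagged and 8.08 ± 0.43 in wild-type spermatids (SD, n = 6 each), and its spermatocyte signals were 4.83 ± 0.31 in tagged mice and 5.81 ± 0.71 in wild-type mice. In tagged mice it was above background on 2 spermatid and 3 spermatocyte arrays, and the test of the difference in stage change passed (adjusted p = 2.09e-05, limma). In wild-type mice Mlkl rose by 2.26 with stage, the potassium channel partner gene Kcnip2 by 2.03, the microtubule minus-end gene Camsap3 by 1.86, Gramd2 by 2.25, the actin-capping gene Tmod4 by 2.40 and Fez1 by 2.24. Of the 6 tagged spermatid and 6 tagged spermatocyte arrays, Kcnip2 was above background on 1 and 2, Camsap3 on 0 and 1, Gramd2 on 4 and 2, Tmod4 on 2 and 0 and Fez1 on 5 and 4. Sizes of these differences are not read, since the tagged signals lay near the detection limit.

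**Figure D5:**
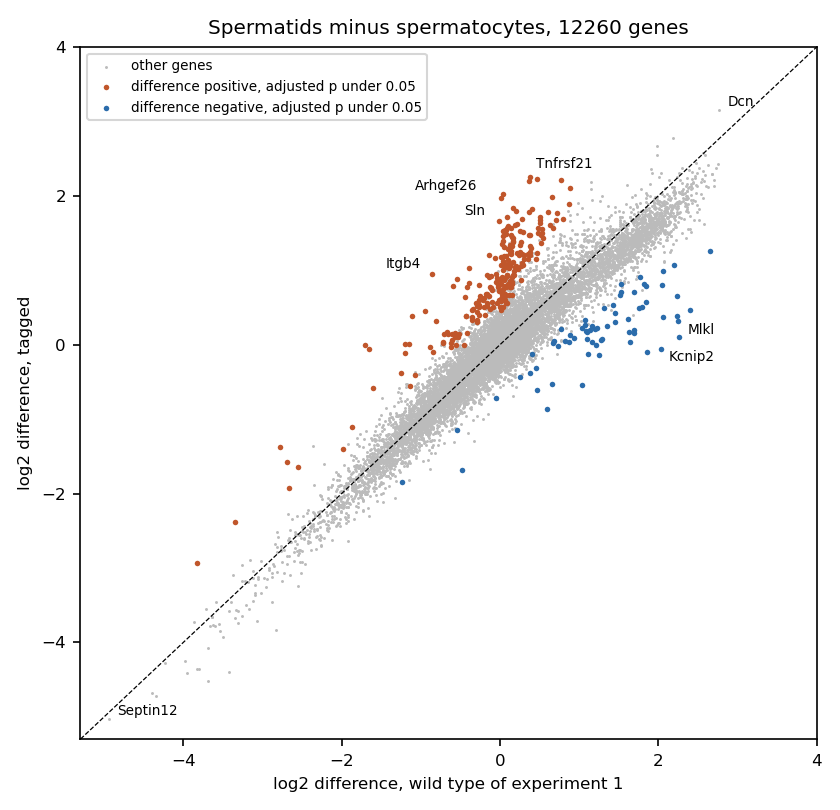
Log2 difference, spermatids minus spermatocytes, in tagged mice (vertical) against wild-type mice of experiment 1 (horizontal) for 12260 genes, with the 238 more positive and 68 more negative differences in colour and a dashed line of equal change. Most genes follow the line (r = 0.951), and many of the coloured genes above it lie near 0 on the wild-type axis, as do Arhgef26 and Sln, whose probes were above background on 0 wild-type arrays.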

How the data were processed

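RNA of 44 single-channel Illumina mouse BeadChip arrays was analysed, 12 of them of tagged mice. Per the file headers, the deposited raw table holds a mean intensity for 45281 probes on each array and a detection p-value. The deposited processed table holds intensity values that the authors normalized so that all arrays have nearly the same median. Software for these steps was not named in the labels.

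Raw intensities were background-corrected with the detection p-values (normexp, offset 16), quantile normalized and converted to log2 values from the deposited intensities by neqc (limma 3.58.1, R 4.3.3). Probes with a detection p under 0.05 on at least 5 arrays were kept (22605, of which 18813 had 1 gene name and 3792 had none here), and the brightest probe stood for each of 12260 genes. On the whole array 34885 probes had 1 gene symbol, 18 several and 10378 none, and 818 of 825 listed symbols were matched. Means of the 8 groups were estimated together from the 44 arrays. Tests by limma were two-sided, with Benjamini-Hochberg adjustment over all genes and a threshold of 0.05. Scores were compared by exact permutation. Where 0 arrays of a group were above background, a fold is a bound, with each dim array raised to its lowest signal above background. The fit was tested on simulated data. Promoters were searched with Python 3.11.15.

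The members, gene lists and tests were chosen with earlier results of these data known. Genes were named by rule: the 10 largest changes each way with signal on all arrays of the higher group, key members of each list with the 2 others of smallest p, the 6 largest differences from wild type each way, the 4 largest X-linked and Y-linked changes each way, and the 5 largest detection bounds each way. Of 69 key members 59 were measured, and 6 others had a probe that did not pass the filter. Alternatives changed the normalization, background correction, filter, probe rule, arrays in the fit, weights and block, and left out arrays. Replicate numbers come from the titles. Deviations of same-numbered tagged and wild-type arrays correlated at 0.156 to 0.416 in spermatids and 0.233 to 0.857 in spermatocytes, so the paired value is given where it moved a count or call. Genotypes were taken from titles and the design text, since the genotype tag of the labels refers to a different gene.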

Additional observations from a re-analysis of the deposited data

Results flagged for a closer look

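Among 308 groups of 6 tagged arrays, from 154 named genes, 22 had 1 array far from the other 5, where chance gives about 1 in 20. In tagged spermatids the low array was replicate 3 for 1700009J07Rik (7.29), Akap4 (11.93), Fndc3a (6.62), H1f7 (10.63), Hspa1l (12.13), Rbm31y (7.17), Tex46 (8.01), Tmsb15a (8.53), Tnfrsf21 (6.46) and Tppp2 (8.93). Other spermatid arrays apart were replicate 5 for Efnb1 (4.50) and Ldhc (14.64), replicate 4 for Odf1 (14.27), replicate 1 for Rnf8 (6.70) and, on the high side, replicate 2 for Vim (6.49). In tagged spermatocytes they were replicate 1 for Ccna1 (low, 11.07) and Lyz2 (high, 6.06), replicate 6 for Gk2 (high, 10.04) and Prm1 (low, 13.95), and replicate 5, low for the kallikrein genes Klk1b21 (9.86), Klk1b24 (8.44) and Klk1b27 (9.09).

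The stage change differed between tagged and wild-type mice for 17 named genes. The values are fitted log2 differences, and no size is read from those of genes with signals at or below background in 1 genotype. It was more positive in tagged mice for Arhgef26 (2.00), Sln (1.95), Tnfrsf21 (1.88), Chil4 (1.84), Itgb4 (1.80), Chil3 (1.76), Zbtb16 (1.42), H2al2c (1.18), H4c2 (1.11), Serpina1d (0.93) and H1f6 (0.80). It was more negative for Mlkl (-2.15), Kcnip2 (-2.08), Camsap3 (-1.95), Gramd2 (-1.93), Tmod4 (-1.93) and Fez1 (-1.86). Zbtb16, the spermatogonial transcription factor PLZF, lay at 7.33 ± 0.37 in tagged and 5.24 ± 0.17 in wild-type spermatids (SD, n = 6 each) and at 5.63 ± 0.27 in tagged and 4.97 ± 0.27 in wild-type spermatocytes.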

How the results depend on the processing

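The numbers of genes higher and lower in tagged spermatids stayed within 1.5 times the reported counts under every alternative run, and leaving out 1 array gave 3500 to 3633 higher and 3737 to 4057 lower. The count of differences from wild type was 171 with cyclic loess, 171 with experiment 1 alone, 143 with median centring, 515 with array weights and 255 to 404 without 1 array (306 as reported). With the replicate number as a block within genotype there were 3773 genes higher, 4188 lower and 391 differences, 107 of them more negative (68 as reported). Same-numbered spermatid and spermatocyte arrays correlated in their deviations at -0.03 to 0.462 in tagged mice, where not every pair was above 0.1, and at 0.128 to 0.57 in wild-type mice, and 4 of 12 tagged arrays correlated best with their own number. Chosen after seeing the data, pairing same numbers across genotypes gave 363 differences and changed no call on the means of the 41 and 62 genes (exact sign-flip p = 0.0313, the smallest 6 pairs can give, for both means in spermatids, and 0.0625 and 0.125 in spermatocytes). Leaving somatic markers and kallikreins out of them changed no call either. The mean of the 41 genes, tagged minus wild-type spermatids, was -1.13 to -0.92 without 1 array. For spermatocytes it was -0.99 to -0.47 without 1 array, and -1.14 (exact permutation p = 0.0429) without tagged replicates 1 and 2. Without wild-type replicate 1 as well it was -0.82 (exact permutation p = 0.0397). No conclusion is drawn from these p-values, since tagged replicates 1 and 2 were the highest tagged spermatocyte arrays on this mean. For the 62 genes the mean, tagged minus wild type, was -0.31 to -0.23 in spermatids without 1 array. With median centring it was -0.26 (exact permutation p = 0.0844). In spermatocytes it was -0.27 to -0.06 without 1 array and 0.055 (exact p = 0.795) without tagged replicates 1 and 2. The split by detection held 10 to 19 and 129 to 172 genes without 1 tagged array, and 58 of the first kind without tagged replicates 1 and 2, with or without wild-type replicate 1. The TGACGTCA share of genes at least 4-fold higher was 0 to 1.84% and the AACNGTT share of genes at least 4-fold lower 2.92 to 3.83% without 1 array. Of 154 named genes 134 kept their side of the threshold throughout, and those past it also kept their direction. A change of sign in a difference that was called in neither setting was not counted. With the mean of a gene's probes Crem (-0.19), H2bc21 (-0.35), Psme4 (0.29), Ptbp2 (-0.10) and Rfx2 (0.12) turned sign, as did Ptbp2 (-0.017) with median centring. The cause was not tested. Dim probes limit the sizes near background.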
